A study of Mus musculus with 4 samples.

Results

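Arginine can be turned to nitric oxide or to ornithine, and the genes of these competing routes were followed here in mouse haematopoietic colonies. The genes considered were Slc7a2, Nos2, Ass1, Arg1, Arg2 and Odc1, 6 genes named for arginine uptake, nitric oxide synthesis, arginase and polyamine synthesis. The platform annotation paired 8 of the 35556 probe sets with them. Slc7a2, Nos2, Arg1 and Arg2 had 1 probe set each and Odc1 had 2. The remaining 2 probe sets were annotated to both Ass1 and Gm5424, a pseudogene in RefSeq, so Ass1 had none of its own and its signal could not be told apart from that of Gm5424. That left 5 of the 6 genes among the 19938 genes with a probe set of their own.

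The colonies came from long-term haematopoietic stem cells (LT-HSC), which sustain blood formation for life after transplantation, and from short-term ones (ST-HSC), which do so for a limited time. All cells were of C57BL/6 background and formed colonies in methylcellulose with serum, stem cell factor, IL-3, IL-6 and GM-CSF. The transduced agent was CreER, in which Cre recombinase is joined to a hormone-binding domain of the oestrogen receptor, or mock. The series title names cells that conditionally express MLL-ENL, a fusion protein of leukaemia; the sources used here do not say whether CreER had been activated or which allele the mock cells carried. The 4 groups were LT-HSC CreER, LT-HSC mock, ST-HSC CreER and ST-HSC mock, with 1 array each. No difference between 2 arrays can therefore be checked against replicates, and so few arrays limit how precise any value is.

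Values are log2 expression per probe set, so a difference of 1 is a 2-fold change. A gene met the size rule if it differed by at least 1 and its level on the higher array was above that array's median over annotated probe sets, the signal floor (8.07 to 8.13). Levels are comparable between arrays for 1 probe set, not between genes. Neutrophil, macrophage, and mast cell and basophil genes were all expressed. All 12 neutrophil markers were above the floor on every array. Each array had 8 to 10 of 11 macrophage and monocyte markers above it and 6 to 10 of 12 mast cell and basophil markers. Each array holds the RNA of a mixed colony population, and fewer cells of a type cannot be told apart from less RNA per cell.

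As background, arginine enters myeloid cells through cationic amino acid transporters, of which Slc7a2 encodes the inducible CAT2. Nos2 encodes the inducible nitric oxide synthase, which makes nitric oxide and citrulline from arginine with tetrahydrobiopterin as cofactor, and Ass1 encodes argininosuccinate synthase, which starts the conversion of citrulline back to arginine. The arginases encoded by Arg1 (cytosolic) and Arg2 (mitochondrial) split arginine to urea and ornithine, and Odc1 encodes ornithine decarboxylase, which commits ornithine to polyamines. In mouse macrophages Nos2 is induced by interferon gamma and bacterial products and Arg1 by IL-4 and IL-13, and their ratio is widely used to describe activation states.

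**Figure D1:**
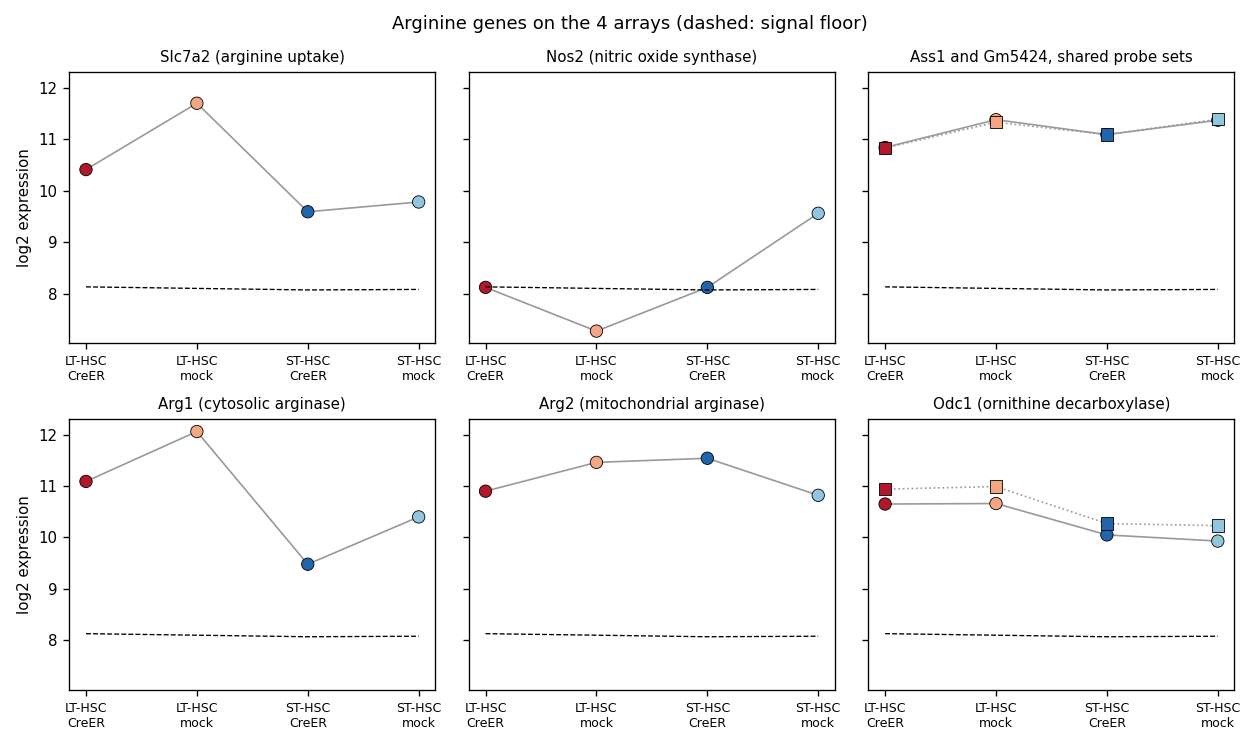
Log2 expression of the 8 probe sets on the 4 arrays. Circles and squares are the separate probe sets of a gene, and the dashed line joins the signal floors. Nos2 reached 9.56 on the ST-HSC mock array and lay near or under the floor on the other 3, whereas Slc7a2 and Arg1 were highest on the LT-HSC mock array, at 11.70 and 12.06.

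Slc7a2, the uptake gene, was highest in mock-transduced LT-HSC colonies. Its level was 10.41 on the LT-HSC CreER array and 11.70 on the LT-HSC mock array, and 9.59 on the ST-HSC CreER array and 9.78 on the ST-HSC mock array. Both LT-HSC arrays thus lay above both ST-HSC arrays, and both CreER arrays below their mock counterparts. With CreER the level was 2.44-fold lower in LT-HSC colonies (-1.29), a difference that met the size rule, and it differed by -0.19 in ST-HSC colonies. Of 10172 genes past the floor in the LT-HSC comparison, 0.324% were lower by at least as much. Between populations Slc7a2 was 1.77-fold higher in LT-HSC than in ST-HSC colonies with CreER (0.82) and 3.78-fold higher with mock (1.92), and the mock difference met the size rule.

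Nos2, at the entry to nitric oxide, had the opposite extreme. Its level was 8.12 on the LT-HSC CreER array and 7.27 on the LT-HSC mock array, and 8.12 on the ST-HSC CreER array and 9.56 on the ST-HSC mock array. The ST-HSC mock colonies stood apart above the rest, the LT-HSC mock colonies lay lowest, and the CreER colonies of both populations gave the same level. With CreER, Nos2 was 2.72-fold lower in ST-HSC colonies (-1.44), and 2 of 10047 genes, itself included, were lower by at least as much. In LT-HSC colonies it differed by 0.84 in the other direction, but both of those levels were under the floor, so Nos2 did not enter that comparison. Among mock colonies it was 4.89-fold lower in LT-HSC than in ST-HSC (-2.29), again 1 of the 2 genes furthest to that side, here of 10208. The size of that difference is uncertain because the LT-HSC mock level was under the floor. Both differences that met the size rule share the ST-HSC mock array. With the floor raised to the 75th percentile of each array, Nos2 met the rule in no comparison.

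The probe sets shared by Ass1 and Gm5424 differed little between arrays. The first gave 10.84 and 11.38 on the LT-HSC CreER and LT-HSC mock arrays, and 11.09 and 11.37 on the ST-HSC CreER and ST-HSC mock arrays. The second gave 10.83 and 11.33, and 11.09 and 11.39, in the same order. Both lay lower with CreER in each population, with differences of -0.55 and -0.50 in LT-HSC and of -0.28 and -0.30 in ST-HSC colonies. Between populations they differed by -0.25 with CreER on both and by 0.01 and -0.06 with mock. None of these differences reached 2-fold.

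Arg1 was the member with the widest range, 2.57 log2 units. Its level was 11.09 on the LT-HSC CreER array and 12.06 on the LT-HSC mock array, and 9.48 on the ST-HSC CreER array and 10.40 on the ST-HSC mock array. Both LT-HSC arrays lay above both ST-HSC arrays, and CreER lay below mock in each population by nearly the same amount. The population difference met the size rule with each transduction, at 1.60 with CreER (3.04-fold) and 1.66 with mock (3.16-fold). The CreER differences, -0.97 in LT-HSC colonies (1.96-fold lower) and -0.91 in ST-HSC colonies (1.89-fold lower), were just short of 2-fold. In ST-HSC colonies 0.0995% of genes past the floor were lower by at least as much, and in LT-HSC colonies 0.836%.

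Arg2 did not follow Arg1. Its level was 10.90 on the LT-HSC CreER array and 11.46 on the LT-HSC mock array, and 11.54 on the ST-HSC CreER array and 10.82 on the ST-HSC mock array. It was lower with CreER in LT-HSC colonies (-0.56) and higher with CreER in ST-HSC colonies (0.72, 1.64-fold). The order of the populations differed likewise, with LT-HSC minus ST-HSC at -0.64 with CreER and 0.63 with mock. No difference of Arg2 met the size rule.

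Odc1 separated the populations and differed little between CreER and mock. Its probe set with the higher signal gave 10.94 on the LT-HSC CreER and 10.99 on the LT-HSC mock array, and 10.27 on the ST-HSC CreER and 10.23 on the ST-HSC mock array. The other probe set gave 10.65 and 10.66, and 10.05 and 9.93, in the same order. Both LT-HSC arrays lay above both ST-HSC arrays on either probe set. The population difference was 0.67 with CreER and 0.76 with mock by the first probe set, and 0.60 and 0.73 by the second. CreER differences were -0.04 and 0.04 by the first, and -0.01 and 0.12 by the second, in LT-HSC and ST-HSC colonies.

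**Figure D2:**
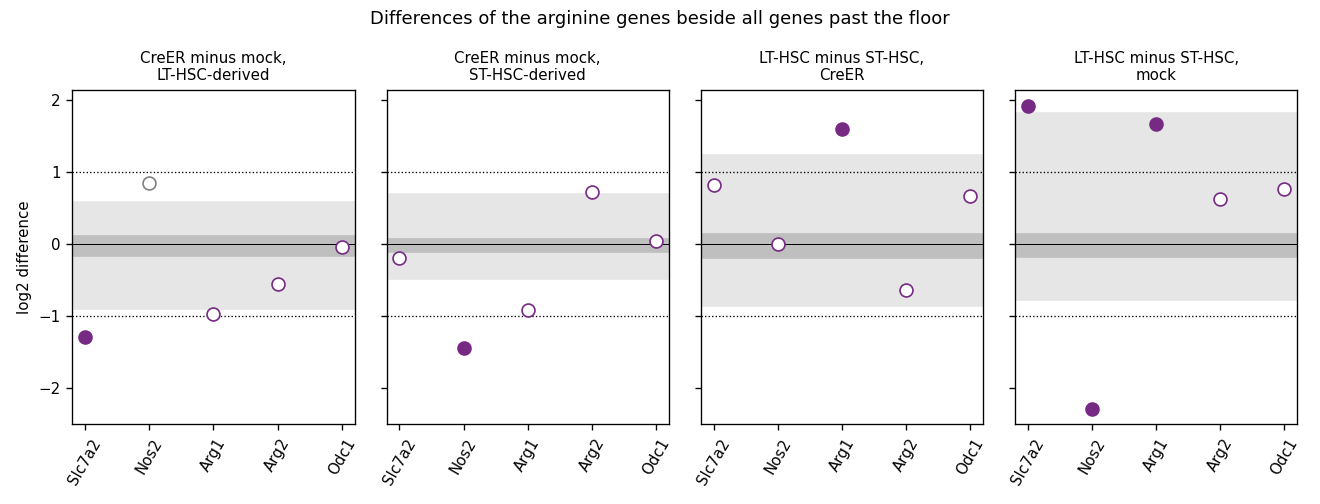
Log2 differences of the 5 genes with a probe set of their own in the 4 comparisons. Filled circles met the size rule, the grey circle is under the floor on both arrays, dotted lines mark 2-fold, and the dark and light bands hold the middle 50 and the middle 98 percent of all genes past the floor. Nos2 stood far below the band in ST-HSC colonies with CreER and in mock-transduced LT-HSC colonies, and Arg1 stood above it in CreER-transduced LT-HSC colonies.

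Counted together, 1 of the 4 members past the floor, Slc7a2, met the size rule on the lower side with CreER in LT-HSC colonies, as did 0.767% of all genes, and none did on the higher side, where 0.108% did. In ST-HSC colonies 1 of 5, Nos2, was lower, against 0.0796% of all genes, and none was higher, against 0.438%. Among CreER colonies 1 of 5 (Arg1) was higher in LT-HSC, against 1.39% of all genes, and none was lower, against 0.550%. Among mock colonies 2 of 5 (Slc7a2 and Arg1) were higher in LT-HSC, against 2.72%, and 1 of 5 (Nos2) was lower, against 0.402%. The median difference of the members past the floor was -0.77, -0.19, 0.67 and 0.76 in these comparisons, where that of all genes lay between -0.03 and -0.02. The comparisons share arrays in pairs, so these counts are not separate observations.

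The Nos2 and Arg1 differences lay over 1 log2 unit apart in 3 of the 4 comparisons. The Nos2 difference minus the Arg1 difference was -1.61 for LT-HSC against ST-HSC with CreER and -3.95 with mock. It was 1.81 for CreER against mock in LT-HSC colonies. In that last comparison Nos2 was under the floor on both arrays, so it did not enter it and 1.81 is a difference near background. Between populations Nos2 was under the floor on the LT-HSC array each time, so those sizes are uncertain. In ST-HSC colonies the Nos2 difference minus the Arg1 difference was -0.53, because both genes were lower with CreER there. The 2 genes were not mirror images: Arg1 was highest where Nos2 was lowest, on the LT-HSC mock array, but Arg1 was lowest on the ST-HSC CreER array, whereas Nos2 was highest on the ST-HSC mock array.

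An additive limma model over all 4 arrays, with terms for population and transduction, left 1 residual degree of freedom. It takes each population as the repeat of the other and counts an unequal difference as error. Nothing in the labels says that the cells came from separate animals, so its p-values measure only the spread between these arrays. In limma, Arg1 rose in LT-HSC relative to ST-HSC colonies by 1.63 ± 0.09 (SE), with an adjusted p of 0.00421, and lay higher in 2 of 2 comparisons. Odc1 rose by 0.71 ± 0.09 (SE, limma adjusted p = 0.0204), also higher in 2 of 2. Slc7a2 rose by 1.37 ± 0.26 (SE, limma adjusted p = 0.0461), but its adjusted p passed the threshold of 0.05 in 2 of 7 other settings and ran from 0.0195 to 0.0813 over them. Thus 3 of 5 members rose, where 3.78% of the 10411 genes in the fit rose, and none fell, where 2.49% did.

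Nos2 had a population effect of -1.15 ± 0.51 (SE, limma adjusted p = 0.234), its unequal differences with CreER and mock entering the error, and Arg2 had an adjusted p of 0.996 in limma. For CreER against mock, 0% of the 10411 genes passed and none of the members did. In limma 1048 genes, 10.1%, had an unadjusted p under 0.05, and they included Arg1 (-0.94 ± 0.09 SE, unadjusted p = 0.000117, adjusted p = 0.316) and Slc7a2 (-0.74 ± 0.26 SE, unadjusted p = 0.0319, adjusted p = 0.453). The adjusted p of Arg1 for this term ran from 0.179 to 0.42 over the other settings.

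Of the other arginine and cationic amino acid transporters, 3 were at least 2-fold higher in LT-HSC than in ST-HSC mock colonies. All 10 listed genes were measured and 8 passed the floor in that comparison, where 2.72% of all genes were at least 2-fold higher. None was at least 2-fold lower, against 0.402%. Of the 8, 6 were above 0, against 45.1% of all genes, 2 were below it and the median was 0.46. Slc7a3, which encodes a further cationic transporter, was higher by 2.23, although its ST-HSC mock level of 7.05 was under the floor. Slc7a8, a transporter of neutral amino acids, was higher by 1.12 and Slc7a1, the constitutive cationic transporter, by 1.07. In limma these 3 of 8 rose, against 3.78% of all genes, Slc7a1 with an adjusted p of 0.00785, Slc7a8 with 0.0208 and Slc7a3 with 0.0437. With CreER 1 of 7 met the size rule, Slc7a1 at 1.08, against 1.39% of all genes, and the median was 0.39. For CreER minus mock Slc7a3 differed by -1.06 in LT-HSC colonies, meeting the size rule, 1 of 7 past the floor against 0.767% of all genes. In ST-HSC colonies no transporter met the rule, where 0.438% of all genes were higher and 0.0796% lower. Slc7a1 and Slc25a15, a mitochondrial ornithine carrier, were at -0.22 each.

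Nos2 was the one nitric oxide synthase gene past the floor. Nos1 and Nos3, the neuronal and endothelial enzymes, stayed under it on every array, between 7.44 and 7.89. Of the 7 measured synthase and partner genes, Ddah1, which breaks down inhibitory methylarginines, met the size rule among mock colonies, at 1.49 for LT-HSC minus ST-HSC (limma adjusted p = 0.0424, higher in 2 of 2), with 6.81 on the ST-HSC mock array under the floor. It was 1 of 4 past the floor in that comparison, where 2.72% of all genes were at least 2-fold higher. With CreER against mock in LT-HSC colonies Ddah1 differed by -0.73 and Nos1ap, an adaptor of the neuronal synthase, by 0.71; in ST-HSC colonies Nos1ap differed by 0.26. Nostrin, which binds the endothelial synthase, differed by -0.69 between CreER-transduced LT-HSC and ST-HSC colonies.

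Among 7 measured tetrahydrobiopterin genes, 1 met the size rule, in both population comparisons. It was 1 of 6 past the floor with CreER, against 1.39% of all genes higher, and 1 of 7 with mock, against 2.72%. Pcbd1, which recycles the cofactor and also binds the transcription factor HNF1, was higher in LT-HSC colonies by 2.13 with CreER and by 3.17 with mock (limma adjusted p = 0.0092), at 9.54 on the LT-HSC CreER and 10.13 on the LT-HSC mock array, and 7.41 on the ST-HSC CreER and 6.96 on the ST-HSC mock array. The ST-HSC levels were under the floor, so the size of these differences is uncertain. Gch1, the rate-limiting enzyme of cofactor synthesis, stayed between 7.83 and 8.18, and did not share the Nos2 maximum on the ST-HSC mock array. It passed the floor only on the LT-HSC mock array, so its contrast with Nos2 is uncertain.

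The urea cycle list held no gene at 2-fold in any comparison, of 8 measured and 3 or 4 past the floor. On either side 0.0796% to 2.72% of all genes were at 2-fold, so with so few genes none is near that share. Otc and Cps1, the liver enzymes of the cycle, were under the floor on every array, and Asl, which completes the conversion of citrulline to arginine after Ass1, stayed between 9.74 and 9.92. Gamt, the second enzyme of creatine synthesis, differed by -0.72 with CreER and -0.52 with mock between LT-HSC and ST-HSC colonies and fell in limma (adjusted p = 0.035). It was 1 of 4 list genes in the fit, where 2.49% of all genes fell. Gatm, the first enzyme of creatine synthesis, which uses arginine, differed by -0.82 with mock and by 0.66 for CreER against mock in LT-HSC colonies, and did not pass limma (adjusted p = 0.114).

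Among genes that link ornithine, proline and glutamate, Aldh18a1, which makes the precursor of proline and ornithine from glutamate, was higher in LT-HSC colonies by 1.09 with CreER and 1.17 with mock. It rose in limma (adjusted p = 0.00761), as did Prodh, the first enzyme of proline breakdown (adjusted p = 0.0196), at 0.82 and 0.68. Of the 5 measured genes of this list, all past the floor, 1 met the size rule with CreER, against 1.39% of all genes. With mock 1 of 5 did, against 2.72%, and the list medians were -0.02 and 0.01. In limma 2 of 5 rose, against 3.78% of all genes. Oat, which links ornithine to proline and glutamate, differed by -0.02 and -0.08. No polyamine gene met the size rule in any comparison, of 13 measured and 11 past the floor. On either side 0.0796% to 2.72% of all genes did, so none of 11 is near the share of all genes. Srm, the spermidine synthase gene, was higher in LT-HSC colonies by 0.67 with CreER and 0.55 with mock. It was the one of the 11 to rise in limma (adjusted p = 0.0307), next to Odc1, where 3.78% of all genes rose. The median of the polyamine list was -0.07 with CreER and 0.08 with mock.

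**Figure D3:**
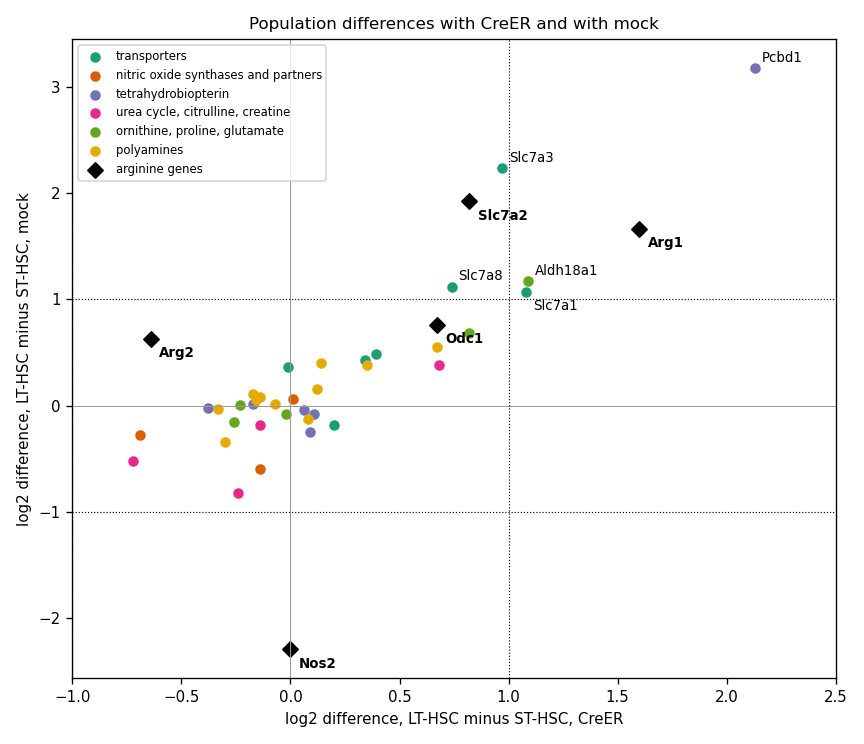
Log2 difference of LT-HSC minus ST-HSC colonies with CreER (horizontal) and with mock (vertical) for the arginine genes (diamonds) and for pathway genes past the floor in both comparisons (circles, coloured by list). Genes that met the size rule in either comparison are named. Arg1, Slc7a2 and Odc1 lie to the upper right with Slc7a1, Slc7a3, Slc7a8, Aldh18a1 and Pcbd1, Nos2 lies at the bottom and Arg2 at the upper left.

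Genes often seen with Arg1 in alternatively activated macrophages were lower with CreER in LT-HSC colonies. Of 20 measured genes 16 passed the floor; all 16 were below 0, where 44.4% of all genes were above it, and 8 were at least 2-fold lower, against 0.767%. The median was -0.99 against -0.03 for all genes. In the same comparison 9 of 10 macrophage and monocyte markers past the floor were below 0, with a median of -0.45, and their part in this result was not tested. Over all 20, whether or not past the floor, 2 were above 0 and the median was -0.73. They included Fn1 (-1.67), which encodes fibronectin, and the receptor genes Mrc1 (-1.32) and Trem2 (-1.12). Retnla, a resistin-like gene induced by IL-4, differed by -1.10, its CreER level lying under the floor. None passed limma for CreER. In ST-HSC colonies 10 of 12 were below 0, where 42.6% of all genes were above it, with a median of -0.15. None was at 2-fold, where 0.438% of all genes were higher and 0.0796% lower. Fn1 differed there by -0.85 and Irf4, a factor of IL-4 responses, by -0.72.

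Among mock colonies all 16 past the floor were above 0 in LT-HSC relative to ST-HSC, as were 45.1% of all genes, and 5 of them were at 2-fold, against 2.72%, with a median of 0.67; over all 20, 18 were above 0 and the median was 0.56. Those named were Retnla (2.34), the eosinophil chemokine gene Ccl24 (2.17), the transglutaminase gene Tgm2 (1.75) and the lectin gene Mgl2 (1.23). Retnla and Ccl24 were under the floor on both ST-HSC arrays, at 5.77 and 7.27 with mock, so the size and order of their differences are uncertain. With CreER the median was 0.26, and 8 of 13 were above 0, against 46.1% of all genes. Ccl24 (1.29) and Tgm2 (1.05) met the size rule, 2 of 13 against 1.39% of all genes. In limma 4 of 16 rose in LT-HSC colonies, against 3.78% of all genes, Retnla, Mgl2, Ccl24 and Tgm2, with adjusted p-values between 0.00761 and 0.0187, and none fell. Both the LT-HSC CreER comparison and the mock comparison use the LT-HSC mock array, on which Arg1 itself was highest.

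Genes often seen with Nos2 in classically activated macrophages differed between comparisons in whether they lay on the side of Nos2. Between mock colonies, where Nos2 was 4.89-fold lower in LT-HSC, 3 of 13 list genes past the floor were at least 2-fold higher, against 2.72% of all genes, and none lower, with a median of 0.06. They were Il6 (3.68), the cyclooxygenase gene Ptgs2 (2.22) and the NF-kappaB cofactor gene Nfkbiz (1.45). With CreER 5 of 14 were at least 2-fold higher, against 1.39% of all genes, among them Ptgs2 (3.19), Il6 (3.18), Il1b (1.98) and Nfkbiz (1.53), with a median of 0.37. In CreER-transduced ST-HSC colonies Il6 had a level of 7.86, below the floor, so the size of its difference is uncertain. In limma 4 of 14, Il6, Ptgs2, Nfkbiz and Il1b, rose in LT-HSC colonies, against 3.78% of all genes. Irf5, a factor of inflammatory macrophages, was the 1 of 14 to fall (limma adjusted p = 0.031), against 2.49% of all genes. For CreER against mock none met the size rule in either population, where 0.0796% to 0.767% of all genes did on either side. The median was 0.14 in LT-HSC colonies, with Nos2 at 0.84 under the floor. There 9 of 14 were above 0, against 44.4% of all genes. Il6 differed there by -0.74 and Il1b by 0.64. In ST-HSC colonies the median was -0.25, with Nos2 at -1.44. There 9 of 14 were below 0 and 5 above it, not far from all genes, of which 42.6% were above 0. Saa3, an acute-phase gene, differed there by -0.89 and Ptgs2 by -0.76.

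**Figure D4:**
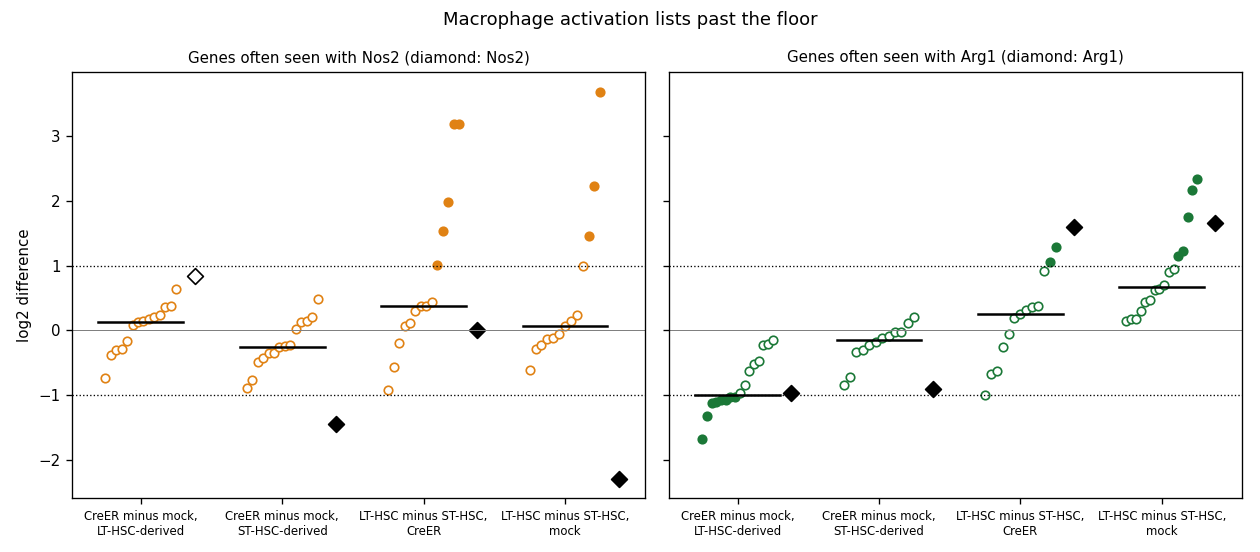
Log2 differences of list genes past the floor in the 4 comparisons, for genes often seen with Nos2 (left) and with Arg1 (right) in macrophages. Filled circles met the size rule, bars are medians, and diamonds show Nos2 or Arg1 itself, open where under the floor. Arg1 lies on the same side of 0 as the median of its list in all 4 comparisons. Nos2 does so for CreER against mock (0.84 beside 0.14, and -1.44 beside -0.25), but lies at -2.29 beside 0.06 among mock colonies and at 0 beside 0.37 among CreER colonies.

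Receptors and transcription factors upstream of either gene differed little. All 21 measured genes were past the floor, and the size rule was met by 1, for CreER minus mock in LT-HSC colonies, where 0.767% of all genes were lower. Epas1, which encodes the hypoxia factor HIF-2alpha, differed there by -1.39, at 7.77 on the CreER array, under the floor, and 9.16 on the mock array. Irf8, a macrophage lineage factor, differed by -0.85 between LT-HSC and ST-HSC mock colonies and differed by -0.35 with CreER in ST-HSC colonies. Its highest level, 10.63, was on the ST-HSC mock array, as was that of Nos2. The IL-4 receptor gene Il4ra stayed between 11.47 and 11.71. None of the 21 passed limma for either term. Of all genes 3.78% rose and 2.49% fell for population and 0% passed for CreER. Shares this low give few calls among 21 genes of any kind.

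The 5 genes nearest to each member in pattern were taken by the root mean square difference of log2 profiles over the 4 arrays, each centred on its own mean. They were sought for the 3 members whose levels spanned at least 1 log2 unit, among 531 other genes that did so. Slc7a2 had close neighbours, Neb (0.07), Derl3 (0.07), Phyhd1 (0.08), Dnase2b (0.10) and Tgm2 (0.11). Neb and Dnase2b were under the floor on every array but LT-HSC mock, and Derl3 and Phyhd1 on both ST-HSC arrays. Their closeness to Slc7a2 thus rests in part on levels under the floor. The neighbours of Arg1 were Npl (0.22), Tgm2 (0.24), Retnla (0.25), Ccl24 (0.26) and the receptor gene Cd244a (0.27). Retnla was under the floor on every array but LT-HSC mock, and Ccl24 on both ST-HSC arrays. The neighbours of Nos2 were further off, the coagulation factor gene F13a1 (0.35), the heat shock gene Hspa1a (0.36), the monocyte chemokine receptor gene Ccr2 (0.42), Tifab (0.44) and the lipid droplet gene Hilpda (0.45). All 5 neighbours of Nos2 were highest on the ST-HSC mock array, Ccr2 at 11.78 and F13a1 at 12.18. They were chosen for nearness to Nos2 on these same arrays, so this shared maximum follows largely from the choice. Tgm2 was near both Slc7a2 and Arg1. With 4 arrays and 531 candidates, likeness of this kind is a description of these arrays.

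**Figure D5:**
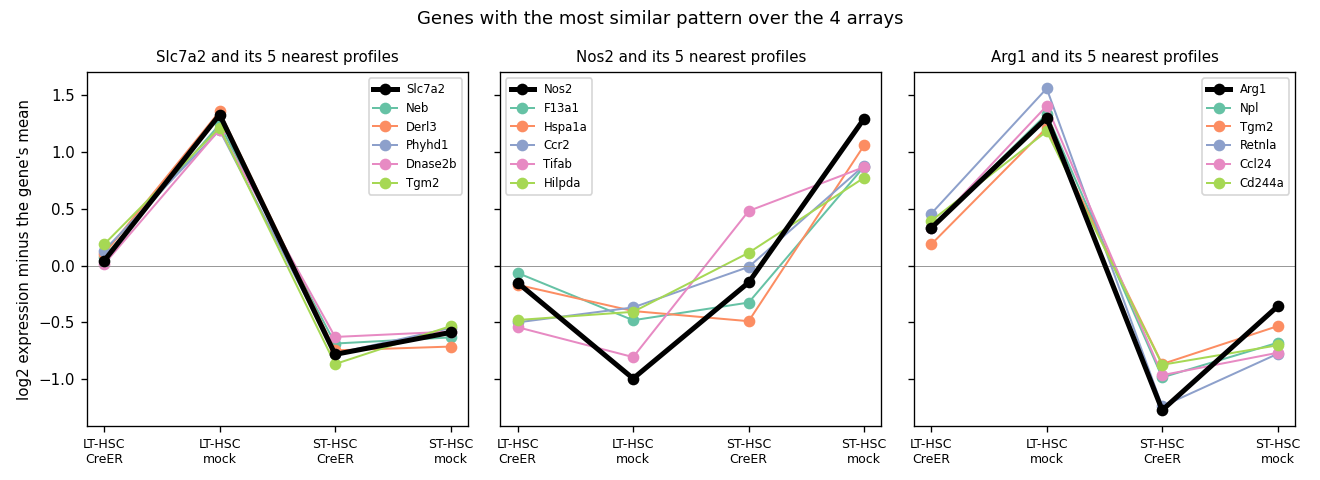
Log2 expression minus the gene's mean over the 4 arrays, for Slc7a2, Nos2 and Arg1 (black) and the 5 genes nearest to each in pattern (colours). The neighbours of Slc7a2 overlie it within a root mean square difference of 0.07 to 0.11, and those of Nos2 lie 0.35 to 0.45 away, with none as low as Nos2 on the LT-HSC mock array. Neb, Derl3, Phyhd1 and Dnase2b were under the signal floor on both ST-HSC arrays.

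Markers of several cell types also differed between the populations. Mast cell and basophil markers had a mean log2 level of 10.43 on the LT-HSC CreER and 10.83 on the LT-HSC mock array, and 9.22 on the ST-HSC CreER and 8.81 on the ST-HSC mock array. Compared with ST-HSC colonies, 6 of 10 past the floor were at least 2-fold higher in LT-HSC colonies with CreER, against 1.39% of all genes, and 9 of 10 with mock, against 2.72%, and Arg1, Slc7a2 and Odc1 were higher in the same comparisons; Tpsab1 and Cma1 were under the floor on every array. Eosinophil markers were lowest on the ST-HSC mock array, with a mean of 9.03 against 9.79 to 10.18 on the others. Of these, 3 of 5 past the floor were at least 2-fold higher in LT-HSC than in ST-HSC mock colonies, against the same 2.72%. Ccr3 and Il5ra were under the floor on every array. With CreER 0 of the 5 were at 2-fold, near the 1.39% of all genes. There 4 were above 0 and 1 below, and the median was 0.61, where Arg1 differed by 1.60. Of 5 fibroblast and stromal markers past the floor, Thy1 was higher in LT-HSC colonies by 1.88 with CreER and 1.85 with mock, and Pdgfrb by 1.23 with mock, its ST-HSC level lying under the floor. At 2-fold that was 1 of 5 with CreER, against 1.39% of all genes, and 2 of 5 with mock, against 2.72%. The other 3, Col1a1, Col1a2 and Col3a1, were below 0 with mock, and the list median was 0.21 with CreER and -0.04 with mock. Macrophage markers had population medians of -0.46 with CreER and -0.13 with mock, neutrophil markers -0.34 and -0.16, and dendritic cell markers -0.60 and 0.04. Some of these markers met the size rule. With mock the neutrophil markers Retnlg (1.82) and Cxcr2 (1.79) were higher in LT-HSC colonies, 2 of 12, against 2.72% of all genes. Ms4a7 (1.05), a macrophage marker, and Itgax (1.11), a dendritic cell marker, were also higher with mock. The macrophage marker Ccr2 was lower (-1.25). With CreER the macrophage marker Mertk (-1.44) and the neutrophil marker Mmp9 (-1.43) were lower. Mertk was at 8.01 in CreER-transduced LT-HSC colonies, a level below the floor. The part of these cell types in the population differences was not tested.

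Macrophage and monocyte markers had a mean level of 10.55 on the LT-HSC CreER and 11.05 on the LT-HSC mock array, and 10.94 on the ST-HSC CreER and 11.23 on the ST-HSC mock array. They were below 0 with CreER for 9 of 10 past the floor in each population, with medians of -0.45 and -0.31 in LT-HSC and ST-HSC colonies, where Arg1 differed by -0.97 and -0.91. Of all genes past the floor 44.4% and 42.6% were above 0 in these comparisons. Mertk, a receptor for dying cells, and Ms4a7 were at least 2-fold lower in LT-HSC colonies, 2 of 10 against 0.767% of all genes. Cd300e was under the floor on every array. Neutrophil markers were above 0 for 8 of 12 and 10 of 12, against 44.4% and 42.6% of all genes, with medians of 0.18 and 0.34. In ST-HSC colonies 3 of 12 were at least 2-fold higher with CreER, against 0.438% of all genes: Mmp9 (2.05), Cxcr2 (1.64) and Retnlg (1.57). Dendritic cell markers had 4 of 8 past the floor, all below 0 with CreER in LT-HSC colonies, with Itgax at -1.63. In ST-HSC colonies, where Nos2 was lower with CreER, 4 of 5 eosinophil markers and 2 of 8 mast cell and basophil markers past the floor were at least 2-fold higher with CreER, against the same 0.438%, with medians of 1.08 and 0.60. Fcer1a, among the mast cell and basophil ones, was at 7.61 on the ST-HSC mock array, under the floor. In LT-HSC colonies the medians of these 2 lists were 0.25 and -0.35. Fibroblast and stromal markers past the floor differed by 0.30 at most between CreER and mock in either population, and Dcn, Pdgfra and Lum were under the floor on every array. The part of these cell types in the CreER differences was not tested.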

How the data were processed

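The values deposited by the authors run from 2.21 to 14.82 and were taken as log2 expression. The submitters' processing notes name Affymetrix Expression Console; the sources used here do not give its version, summarisation or normalization. The columns have nearly equal distributions and were used as deposited. Such values compress differences near background.

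Of 35556 probe sets, 21789 had 1 gene symbol in the platform annotation, 1621 several and 12146 none here. Genes were named from probe sets with 1 symbol, and the brightest of them by its mean stood for a gene; all probe sets of the arginine genes are given. Differences are of 2 arrays, and percentages of all genes refer to genes past the floor in that comparison. The additive model used limma 3.58.1 in R 4.3.3 (lmFit, eBayes; 1 residual and 4.27 prior degrees of freedom) on the 10411 genes that any array placed past the floor, adjusted by Benjamini-Hochberg over all of them, and was tested on simulated data.

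The genes, lists and rules were chosen with earlier results of these data known. Named list genes were those meeting the size rule (the 4 furthest where there were more), otherwise up to 2 with the largest difference. Levels of a few others (Nos1, Nos3, Gch1, Asl, Otc, Cps1, Oat, Il4ra and marker genes) are given for their roles, chosen after their values were seen. List genes without a probe set of their own were not analysed here. Alternatives were quantile and cyclic loess normalization, median centring, no floor or a floor at the 75th percentile, 1.5-fold and 3-fold thresholds, the mean of a gene's probe sets, a trend in the prior and an adjusted p of 0.1.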

Additional observations from a re-analysis of the deposited data

Results flagged for a closer look

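Of the arginine genes, 3 had CreER differences of opposite sign in the populations; with 1 array per group this difference was not tested. For Nos2 the CreER minus mock difference was 0.84 in LT-HSC colonies and -1.44 in those of ST-HSC, 2.29 apart, with both LT-HSC levels under the signal floor. For Arg2 it was -0.56 and 0.72, -1.28 apart. For Odc1 it was -0.04 and 0.04, -0.09 apart, and -0.13 apart by its other probe set.

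Some list genes met the size rule in one population and had the other sign in the other, past the floor in both comparisons, which was also not tested. Slc7a3 (-1.06 in LT-HSC and 0.19 in ST-HSC colonies) was left out because both its ST-HSC levels were under the floor. The LT-HSC minus ST-HSC value of the CreER difference was -1.43 for Epas1, -1.91 for Cxcr2, -2.35 for Retnlg and -2.32 for Fcer1a. It was -1.62 for Cpa3, -1.52 for Prg2, -1.20 for Prg3 and -1.69 for Itgax.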

How the results depend on the processing

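Under 3 normalizations and the mean of probe sets, the 80 recomputed differences of the 5 genes kept their sign and their side of the size rule, moving by at most 0.07. With a 1.5-fold threshold 2, 3, 4 and 5 genes met the rule, for CreER against mock in LT-HSC and ST-HSC colonies and for LT-HSC against ST-HSC with CreER and with mock, in place of 1, 1, 1 and 3. With a 3-fold threshold 0 genes met it for CreER against mock in either population. With the floor at the 75th percentile 0 met it for CreER against mock in ST-HSC colonies, because Nos2 was left out. In limma 0 members passed for CreER under any setting, and 2 or 3 passed for population, Arg1 and Odc1 in each; Slc7a2 was lost under the 3 normalizations, the higher floor and the mean of probe sets. The population term gave 653 genes over all, 368 with cyclic loess, 186 with the higher floor (5425 genes tested) and 1401 at an adjusted p of 0.1. The additive limma fit pairs the CreER and mock arrays by population. No paired analysis was possible beyond it because each group had 1 array. Levels near the floor, those of Nos2 above all, limit the size of its differences.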
